A study of Oikopleura dioica with 67 samples.

Results

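The assembled transcripts of the larvacean tunicate Oikopleura dioica that carry the symbols ZIC4, SNAI2, SALL1 or GLIS3 were described here, 9 unigenes of 19277 in all (10122 of them with a symbol). A unigene is 1 assembled transcript. All unigenes with these symbols were taken: 4 for ZIC4 (one spelled Zic4), 1 for SNAI2, 3 for SALL1 and 1 for GLIS3. The symbols were chosen by their RPKM in the 8-cell hemispheres, where unigenes carrying them were high in the vegetal hemisphere of the 8-cell embryo, so their difference between the 8-cell hemispheres is given as a description, without a test. The name zinc-finger factors of the vegetal 8-cell hemisphere held for 4 of the 9 unigenes, one for each symbol. The other 5 were at similar levels in both hemispheres or near 0 in both.

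All 4 symbols stand for transcription factors that bind DNA through zinc fingers of the C2H2 type. ZIC factors pattern the neural plate of vertebrates, and in ascidians, which are also tunicates, the maternal ZIC factor macho-1 specifies muscle in the posterior vegetal cells. SNAI2 (Slug) is a repressor that lowers cell adhesion genes when vertebrate neural crest and mesoderm cells leave an epithelium. SALL1 is a repressor that recruits the NuRD deacetylase complex and is needed for kidney and limb development in mammals, and GLIS3 is a relative of the GLI factors of Hedgehog signalling, needed for pancreatic beta cells in mammals. In tunicates the vegetal hemisphere of the cleaving embryo gives rise to endoderm, notochord, most muscle and part of the nervous system, and the animal hemisphere mainly to epidermis and the rest of the nervous system.

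RNA was sequenced from a wild-type Japanese population that had been kept in laboratory culture. The hemisphere set held 24 libraries in 6 groups of 4, numbered 3 to 6: samples labelled animal hemisphere, vegetal hemisphere and whole embryo, each of 8-cell embryos and of embryos 12 hours after fertilization (12 hpf). How the 12 hpf hemisphere samples were obtained was not given in the sources used here. The staged set held 43 libraries: 3 libraries for each of 13 stages, the first the unfertilized egg and the last the juvenile of 10 hpf, and adult females and adult males with 2 libraries each. Nothing in the labels said that libraries of one group came from separate cultures or spawnings, so the tests measure the spread between libraries, which may be technical. These are bulk samples, in which fewer cells of a type and less RNA per cell cannot be told apart.

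Expression was given in RPKM, reads scaled by unigene length and by the reads of the library, and the 2 sets were deposited as separate tables. The RPKM of a library summed to 824912 to 1121461 in the hemisphere set and to 739145 to 1234504 in the staged set. Staged libraries held 7785352 to 95644620 reads, of which 18.93% to 49.03% aligned, on 4 lanes of 2 sequencing runs. All libraries up to 1.5 hpf, at 10 hpf and of adults came from the first run. All at 2.5 and 3 hpf came from the second, and those at 5 and 8 hpf from both. Comparisons of 2.5 or 3 hpf with stages of the first run cannot tell stage from run. In the authors' sequencing table some staged libraries are named as pools of numbered replicates, among them egg library 41, fertilized egg library 42, 4-cell library 43, 16-cell library 46, 1.5 hpf library 2, 5 hpf library 6 and 8 hpf library 8. Egg library 9 is named St1_Re1 and egg library 29 St1_1, and what the prefix Re stands for is not given. All of these were counted as separate libraries in the tests, and whether they are independent is not given. No read number was used for the hemisphere set, where the steps between low values gave depths within 1.76-fold of each other and 1 read worth 0.0256 to 0.168 RPKM, depending on the unigene. In 2 hemisphere libraries values stood apart: vegetal 12 hpf library 3 had a mean correlation of 0.823 with the other libraries of its group, where the next lowest of all hemisphere libraries had 0.879, and whole 8-cell library 6 held 151 unigenes at 10 RPKM or more that were at 1 RPKM or less in the other 3. Male adults had sperm marker sums of 11728 to 13492 RPKM (13 unigenes) and females 49.0 to 74.0 RPKM.

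The unigenes are told apart below by their DN numbers. The symbols are best matches, and a second deposited sheet gave 4 of the 9 another symbol or none: Zic4 DN23754 and GLIS3 DN9614 are both zic5 there, and ZIC4 DN17012 and SALL1 DN16067 carry no symbol. The authors' deposited table of transcription factors holds 2 of the 9, ZIC4 DN22343 with an e-value of 4.29e-79 to human ZIC4 and SNAI2 DN20191 with 3.41e-30 to human SNAI2. The authors' deposited table of k-means clusters puts ZIC4 DN10145, SNAI2 and GLIS3 in cluster 8 (2534 unigenes) and the 3 SALL1 unigenes in cluster 2 (1256 unigenes). Whether unigenes with 1 symbol are paralogs, alleles or parts of 1 transcript is not given, and reads of near-identical copies could have been split between them.

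At the 8-cell stage, ZIC4 DN10145 had the highest vegetal mean of the 9 unigenes. It stood at 75.0, 12.54, 30.6 and 156 RPKM in vegetal libraries 3 to 6, at 0.458, 0, 1.50 and 0 RPKM in animal libraries 3 to 6, and at 9.95, 13.9, 3.67 and 11.4 RPKM in whole embryos. All 4 vegetal libraries were above all animal ones, but the vegetal values spanned 12.4-fold. SALL1 DN3942 had 67.8, 29.04, 21.9 and 92.3 RPKM in the vegetal and 1.40, 0, 2.49 and 2.61 RPKM in the animal libraries. GLIS3 DN9614, the lowest of the 4, had 10.4, 4.54, 7.05 and 21.7 RPKM in the vegetal libraries and was listed at 0 in 3 animal libraries and at 0.493 RPKM in the other. Vegetal library 6 was the highest for ZIC4 DN10145, SALL1 DN3942 and GLIS3, and libraries 4 and 5 the lowest. SNAI2 DN20191 was the steadiest, with 20.4, 21.8, 30.8 and 25.6 RPKM in the vegetal libraries, a 1.51-fold range, and 0.129, 0.821, 0 and 0.803 RPKM in the animal libraries. These 4 of the 9 unigenes did not overlap between hemispheres. Over the 15697 unigenes tested, 0.886% had all vegetal above all animal libraries, and the fit called 0.401%. That contrast chose the symbols, so nothing is read from the count.

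**Figure D1:**
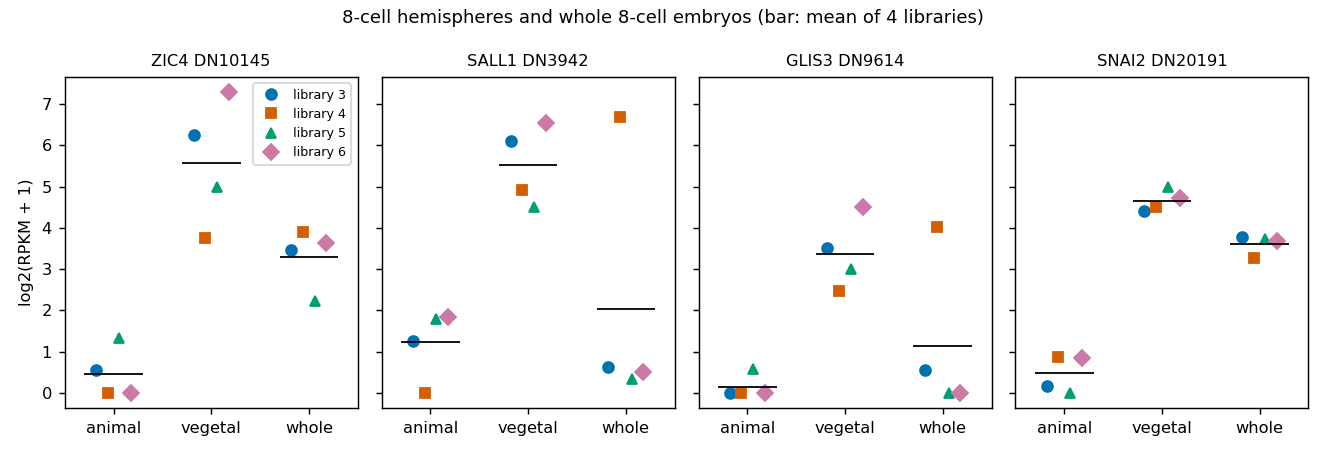
Values of the 4 unigenes in the 8-cell libraries of the hemisphere set, as log2(RPKM + 1), for animal hemispheres, vegetal hemispheres and whole embryos. Each symbol is 1 library and the bar is the mean of 4. The vegetal points lie above all animal points in each panel, and in whole embryos SALL1 DN3942 and GLIS3 are high in library 4 alone.

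The remaining 5 unigenes did not separate the 8-cell hemispheres. SALL1 DN9945 had 7.35 to 8.9997 RPKM in vegetal and 6.04 to 8.73 RPKM in animal libraries, and SALL1 DN16067 had 8.54 to 23.1 and 5.58 to 14.98 RPKM. These RNAs were present in both hemispheres in every library, with overlapping ranges. ZIC4 DN17012 stayed at or under 1.22 RPKM in all 8 libraries, ZIC4 DN22343 at or under 0.449 RPKM and Zic4 DN23754 at or under 0.288 RPKM.

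Whole 8-cell embryos did not all hold the RNAs seen in the vegetal hemispheres. SALL1 DN3942 had 0.557, 103, 0.255 and 0.412 RPKM in whole libraries 3 to 6, and GLIS3 DN9614 had 0.479, 15.1, 0 and 0 RPKM. Only library 4 was high for both. ZIC4 DN10145 and SNAI2 were present in all 4 whole libraries, SNAI2 with 12.7, 8.63, 12.3 and 11.9 RPKM. In the staged set, normalized separately, 8-cell embryos had 0.376, 0.763 and 0.300 RPKM of ZIC4 DN10145, 0.430, 0.345 and 0.183 RPKM of SALL1 DN3942, and GLIS3 was listed at 0 in all 3 libraries, while SNAI2 had 7.28, 9.15 and 13.1 RPKM. SNAI2 was thus the one unigene of the 4 that was above 7 RPKM in every whole and every staged 8-cell library.

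Another count in the same libraries was chosen after these values were seen. In the staged set 27 unigenes, 2 of them ZIC4 DN10145 and SALL1 DN3942, had a mean of 10 RPKM or more at the 32-cell stage and of 1 RPKM or less at the 8-cell stage. Of these, 25 were at 10 RPKM or more in whole 8-cell library 4, against 5, 5 and 3 in whole libraries 3, 5 and 6. The vegetal 8-cell libraries 3 to 6 had 20, 15, 16 and 21 of the 27 at that level and the animal ones 7, 5, 13 and 13. The 8-cell libraries of the hemisphere set differed in how many RNAs of the staged 32-cell embryo they held, and the part of this in the values of ZIC4 DN10145, SALL1 DN3942 and GLIS3 was not tested.

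Over the 13 stages, all 9 unigenes varied by limma's moderated F-test, as did 92.9% of the 18704 unigenes tested. Neighbouring stages were compared, and 17 of 108 such comparisons of the 9 unigenes were called. They fell at 4 of the 12 steps: 8- to 16-cell (0.561% of all unigenes called), 32-cell to 1.5 hpf (14.5%), 1.5 to 2.5 hpf (3.17%), and 2.5 to 3 hpf (27.6%). When each pair of stages was fitted alone, 7 were called, and calls of all unigenes over the 12 steps went from 21968 to 8340. GLIS3 passed the filter only through its 16- and 32-cell libraries, so its part in the staged counts here and below is a description. Over all unigenes the share called was 0.0374% from unfertilized to fertilized egg, 0% to 2 cells, 0.00535% to 4 cells, 0.0214% to 8 cells, 1.76% from 16 to 32 cells, 35.7% from 3 to 5 hpf, 29.7% to 8 hpf and 4.29% to 10 hpf, the 8 steps at which limma called 0 of the 9 (8 of 72 comparisons at an unadjusted p under 0.05). Differences are given below as log2 of RPKM plus 1, a scale that shrinks the changes of unigenes at low RPKM, and adjusted p-values are limma's over all unigenes tested.

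ZIC4 DN10145, SALL1 DN3942 and GLIS3 shared a pulse in late cleavage, at or near 0 in the egg, highest in mean at 32 cells and low again in the tadpole. The egg had 0 to 0.202 RPKM of ZIC4 DN10145 and 0.195 to 0.353 RPKM of SALL1 DN3942, and GLIS3 was listed at 0 in each library up to the 8-cell stage. At 16 cells ZIC4 DN10145 stood at 43.6, 39.6 and 13.1 RPKM, SALL1 DN3942 at 28.9, 31.5 and 1.35 RPKM and GLIS3 at 9.09, 5.84 and 0 RPKM, in libraries 17, 18 and 46. Library 46 was the lowest for each and overlapped the 8-cell libraries for GLIS3. At 32 cells the values were 57.1, 54.6 and 59.9 RPKM of ZIC4 DN10145, 44.1, 42.6 and 43.04 RPKM of SALL1 DN3942 and 7.13, 6.32 and 9.54 RPKM of GLIS3. All 3 libraries there were close together for each unigene.

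These 3 were the members called at the step from 8 to 16 cells, 3 of 9 higher where 0.412% of all unigenes were higher and 0.561% were called in either direction. ZIC4 DN10145 rose by 4.33 ± 0.41 (SE, adjusted p = 6.56e-09), SALL1 DN3942 by 3.32 ± 0.53 (SE, adjusted p = 0.000208) and GLIS3 by 2.04 ± 0.40 (SE, adjusted p = 0.00467). GLIS3 reached 1 RPKM in no staged library outside 16 and 32 cells. It thus passed the filter (1 RPKM or more in 2 staged libraries) only through these groups, and its tests of them are descriptions. GLIS3 lost the call without 16-cell library 17 (log2 difference 1.39, adjusted p = 0.168) or 18 (1.67, adjusted p = 0.134), and with the lane as a term in the fit (1.49, adjusted p = 0.152). In a fit of the 8- and 16-cell libraries alone, none of the 3 was called (adjusted p = 0.130 for ZIC4 DN10145, 0.426 for SALL1 DN3942 and 0.561 for GLIS3). Libraries 17 and 18 came from lane 4 of the first run and library 46 from lane 6 with all 8-cell and 32-cell libraries. Within lane 6, library 46 had 13.1 RPKM of ZIC4 DN10145 against at most 0.763 RPKM at 8 cells, 1.35 RPKM of SALL1 DN3942 against at most 0.430 RPKM, and GLIS3 was listed at 0. Of the 27 unigenes counted above, library 46 had 3 at 10 RPKM or more, and libraries 17 and 18 had 24 and 22. In the authors' sequencing table library 46 is named St6_2+3 and libraries 17 and 18 St6_Re2 and St6_Re3. Whether these numbers mean the same replicates is not given.

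The comparison of 32 with 8 cells, added after the values were seen, lies within 1 lane. The same 3 unigenes were higher there, where 1.66% of all unigenes were called (147 higher and 164 lower, and 160 and 55 with quantile normalization). ZIC4 DN10145 was higher by 5.31 ± 0.41 (SE, adjusted p = 2.33e-11), SALL1 DN3942 by 5.07 ± 0.53 (SE, adjusted p = 3.03e-08) and GLIS3 by 3.10 ± 0.40 (SE, adjusted p = 3.1e-06). By 1.5 hpf all 3 had fallen: ZIC4 DN10145 to 6.77, 3.16 and 8.55 RPKM, SALL1 DN3942 to 5.17, 2.55 and 4.57 RPKM and GLIS3 to 0, 0.390 and 0.430 RPKM. The log2 differences from 32 cells were -3.11 ± 0.41 (SE, adjusted p = 2.61e-07) for ZIC4 DN10145, -3.16 ± 0.53 (SE, adjusted p = 2.31e-05) for SALL1 DN3942 and -2.77 ± 0.40 (SE, adjusted p = 2.08e-06) for GLIS3. At this step 7 of the 9 unigenes were called, 4 higher and 3 lower, beside 14.5% of all unigenes (2156 higher and 563 lower, and 1237 and 1210 with quantile normalization). GLIS3 passed the filter only through its 16- and 32-cell libraries, as given above. Its tests against 32 cells and its place in both counts are therefore descriptions.

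**Figure D2:**
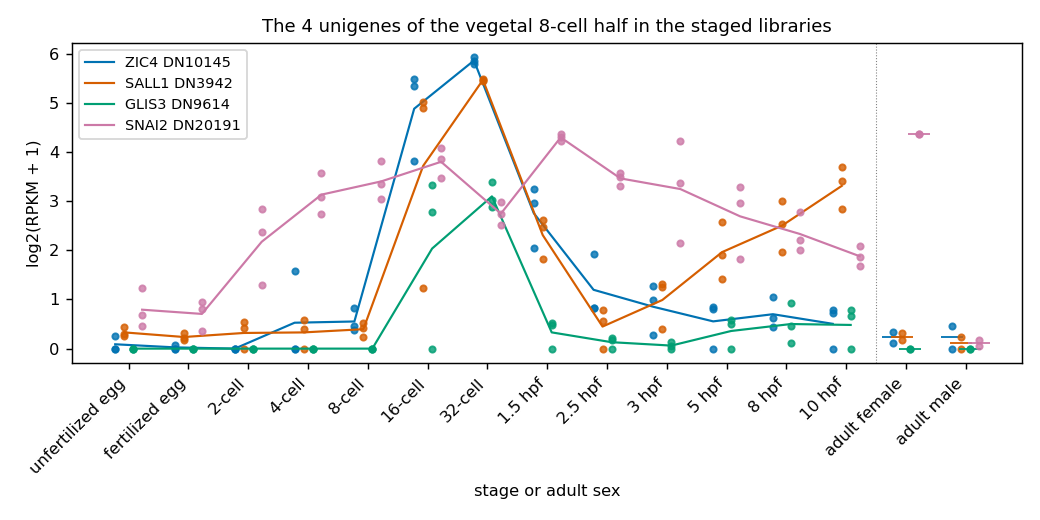
Staged values of the 4 unigenes that were high in the vegetal 8-cell hemisphere, as log2(RPKM + 1), by stage and in adults. Points are libraries (3 per stage, 2 per adult sex), and lines or bars join or mark the means. ZIC4 DN10145, SALL1 DN3942 and GLIS3 peak at 32 cells, while SNAI2 is above 1 RPKM from the 2-cell stage to the 10 hpf juvenile and in females.

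After the pulse the 3 unigenes parted. ZIC4 DN10145 had 0.784, 2.83 and 0.766 RPKM in the 2.5 hpf tadpole and at most 1.43 RPKM from 3 to 10 hpf. GLIS3 was at or under 0.913 RPKM from 1.5 hpf on and was listed at 0 in all 4 adults. SALL1 DN3942 came back in the RPKM as deposited, from 0.479, 0 and 0.720 RPKM at 2.5 hpf through 1.48, 1.38 and 0.324 at 3 hpf, 4.94, 2.76 and 1.66 at 5 hpf and 2.89, 4.78 and 7.07 at 8 hpf to 11.9, 6.14 and 9.62 RPKM at 10 hpf. No single step of that climb was called, but 10 hpf against 3 hpf, a comparison added after the values were seen, differed by 2.32 ± 0.53 (SE, adjusted p = 0.000328). In that comparison 3 of 9 unigenes were called, beside 58% of all unigenes (6524 higher and 4315 lower, and 4628 and 5991 with quantile normalization). The other 2, SNAI2 (-1.37 ± 0.41, SE, adjusted p = 0.00464) and ZIC4 DN22343 (-1.17 ± 0.39, SE, adjusted p = 0.0117), were lower and lost the call without 3 hpf library 33 (adjusted p = 0.0827 and 0.129) and with the lane as a term (adjusted p = 0.511 and 0.782). In a fit of the 3 and 10 hpf libraries alone, 1 of the 9 was called. All 3 hpf libraries came from the second sequencing run and all 10 hpf libraries from the first. Stage and run thus cannot be told apart in this comparison. Against the egg, quantile normalization reversed the difference of SALL1 DN3942 at 5 and 8 hpf, as given below.

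SNAI2 DN20191 followed another course, with a mean above both egg means from the 2-cell stage. It stood at 1.35, 0.371 and 0.611 RPKM in the unfertilized and 0.922, 0.753 and 0.289 RPKM in the fertilized egg, then at 6.20, 4.19 and 1.46 at 2 cells, 7.46, 5.72 and 10.9 at 4 cells, 7.28, 9.15 and 13.1 at 8 cells and 13.5, 15.9 and 10.1 RPKM at 16 cells. Every library from 2 to 16 cells was above every egg library. At 2 cells, however, limma called 0 of the 9 unigenes against the unfertilized or the fertilized egg (1 at an unadjusted p under 0.05 in each). Against the unfertilized egg the 4-cell embryo was higher by 2.34 ± 0.41 (SE, adjusted p = 0.000232), and 3 of the 9 unigenes were called in that comparison, beside 9.09% of all unigenes. With the lane as a term in the fit the difference was 1.93 (adjusted p = 0.0601), and in a fit of those libraries alone its adjusted p was 0.0741. SNAI2 then had 5.66, 6.92 and 4.73 RPKM at 32 cells and 19.6, 18.8 and 17.7 RPKM at 1.5 hpf, the highest level of any stage before the adult. The 32-cell libraries lay below all 16-cell libraries, but that step was not called (-1.05 ± 0.41, SE, adjusted p = 0.219), and the rise to 1.5 hpf was 1.55 ± 0.41 (SE, adjusted p = 0.00646). Quantile normalization made that rise 0.70 (adjusted p = 0.186).

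From 1.5 hpf on no step of SNAI2 was called, and with quantile normalization the steps from 2.5 to 3 hpf (-1.44, adjusted p = 0.00153) and from 3 to 5 hpf (-1.20, adjusted p = 0.00444) were, both lower. The step from 3 to 5 hpf was also called without 3 hpf library 5 (-1.11, adjusted p = 0.0314). Its mean was 10.1 ± 1.03 RPKM (SD, n = 3) at 2.5 hpf, 10.2 ± 7.14 at 3 hpf, 6.03 ± 3.18 at 5 hpf, 4.18 ± 1.50 at 8 hpf and 2.71 ± 0.534 RPKM at 10 hpf. At 3 hpf its libraries were 3.42, 17.6 and 9.41 RPKM, far apart. In the egg comparisons, which share the 3 egg libraries, SNAI2 was higher than the egg at 10 stages, each from 4 cells on, and 43 of 108 comparisons of the 9 unigenes were called. The share called over all unigenes was 0.487% at 2 cells, 9.94% at 8, 7.85% at 16 and 15.6% at 32 cells, and 17.4%, 24.4%, 44.5%, 66.1%, 76.9% and 73.2% at 1.5, 2.5, 3, 5, 8 and 10 hpf. The direction at 5, 8 and 10 hpf turned with quantile normalization, to -0.70, -1.02 and -1.11, and the call at 3 hpf was lost (0.50, adjusted p = 0.264). With the lane as a term SNAI2 was not called against the egg at 4 cells, as given above, 8 cells (2.26, adjusted p = 0.0544) or 32 cells (1.60, adjusted p = 0.283). The call at 3 hpf was lost in a fit of those libraries alone (adjusted p = 0.0512), and at 10 hpf without egg library 29 (adjusted p = 0.0742) or 10 hpf library 24 (adjusted p = 0.0587).

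The 4 ZIC4 unigenes did not share a single course. Beside ZIC4 DN10145 at 16 to 32 cells, Zic4 DN23754 was a burst at 1.5 hpf, with 159, 77.9 and 183 RPKM against 0.392, 0.170 and 1.17 RPKM at 32 cells and 2.87, 10.9 and 3.75 RPKM at 2.5 hpf. It rose by 6.44 ± 0.35 (SE, adjusted p = 1.19e-16) and fell by the next stage with a log2 difference of -4.46 ± 0.35 (SE, adjusted p = 1.12e-10), which lost the call when these stages were fitted alone (adjusted p = 0.0968). Outside 32 cells to 2.5 hpf its staged values stayed at or under 2.36 RPKM, and its highest value in the hemisphere set was 1.21 RPKM, in whole 8-cell library 4. At the step to 2.5 hpf 3 of the 9 unigenes were called, all lower, beside 3.17% of all unigenes (364 higher and 229 lower, and 301 and 300 with quantile normalization): Zic4 DN23754, ZIC4 DN10145 and SALL1 DN3942. ZIC4 DN10145 (adjusted p = 0.0232) and SALL1 DN3942 (adjusted p = 0.0435) lost this call without 1.5 hpf library 2 (adjusted p = 0.122 and 0.202), among other libraries. All 1.5 hpf libraries were sequenced in the first run and all 2.5 hpf libraries in the second. Stage and run thus cannot be told apart at this step for any of the 3.

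ZIC4 DN22343, which the authors' factor table matches to human ZIC4, was present from 1.5 to 10 hpf. It was listed at 0 in all libraries from the fertilized egg to 32 cells, and stood at 9.78, 15.8 and 3.97 RPKM at 1.5 hpf, 7.77, 3.96 and 9.53 at 2.5 hpf, 7.65, 33.9956 and 25.4 at 3 hpf, 19.1, 15.8 and 6.37 at 5 hpf, 11.4, 6.11 and 8.46 at 8 hpf and 6.76, 7.07 and 10.3 RPKM at 10 hpf. The 1.5 hpf libraries were above the 32-cell libraries by 3.27 ± 0.39 (SE, adjusted p = 4.76e-08). The rise to the hatched larva was 1.38 ± 0.39 (SE, adjusted p = 0.00835), with the 3 hpf libraries far apart, and the call was lost without 3 hpf library 33 (adjusted p = 0.0916) or 34 (0.0656) or 2.5 hpf library 4 (0.0854). In both adult sexes it was at or under 0.0744 RPKM. ZIC4 DN17012 was weak throughout the staged set, with a highest stage mean of 3.38 ± 2.29 RPKM (SD, n = 3) at 3 hpf and 0 in all 32-cell libraries. Its rise at 1.5 hpf (1.022 ± 0.34, SE, adjusted p = 0.0382) was lost when any of 5 of the 6 libraries was left out, 1.5 hpf libraries 19 and 31 and each 32-cell library (adjusted p = 0.0865 to 0.205).

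**Figure D3:**
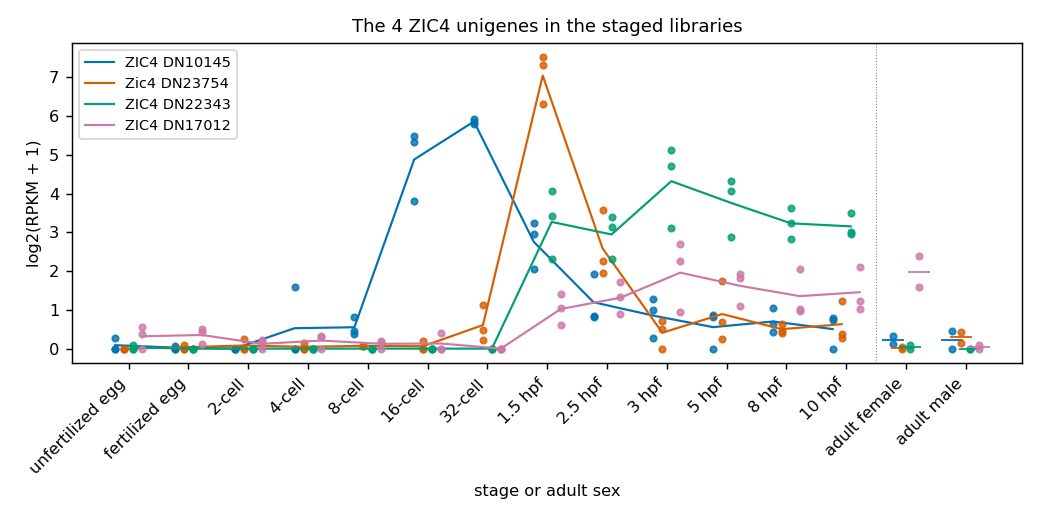
Staged values of the 4 ZIC4 unigenes as log2(RPKM + 1), by stage and adult sex. Points are libraries and lines or bars the means. Among the 13 stages, DN10145 has its highest mean at 32 cells, DN23754 at 1.5 hpf and DN22343 and DN17012 at 3 hpf.

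The 3 SALL1 unigenes followed different courses. DN9945 and DN16067 were maternal, present in the unfertilized egg. DN9945 had 12.6, 17.5 and 15.9 RPKM there and 5.55, 1.12 and 0.954 RPKM at 4 cells. DN16067 had 7.56, 9.75 and 9.10 RPKM in the egg and 3.48, 1.012 and 0.868 RPKM at 4 cells. Against the egg the 4-cell embryo differed by -2.43 ± 0.47 (SE, adjusted p = 0.000781) for DN9945 and -1.93 ± 0.45 (SE, adjusted p = 0.00428) for DN16067, and 4-cell library 36 was the least reduced of the 3 for both. With the lane as a term these became -1.96 (adjusted p = 0.0780) and -1.53 (adjusted p = 0.207), and libraries compared alone gave adjusted p = 0.123 and 0.117. Quantile normalization made the DN16067 difference -0.998 (adjusted p = 0.0875). From 8 cells to 2.5 hpf DN9945 had group means of 3.11 to 7.59 RPKM and DN16067 of 2.04 to 4.59 RPKM, with no step called. With quantile normalization both were lower at 1.5 hpf than at 32 cells, DN9945 by a log2 difference of -1.62 (adjusted p = 0.00305) and DN16067 of -1.57 (adjusted p = 0.00136). At 3 hpf both rose, DN9945 to 7.32, 16.3 and 20.3 RPKM (1.50 ± 0.47, SE, adjusted p = 0.0161) and DN16067 to 5.05, 12.1 and 16.6 RPKM (1.35 ± 0.45, SE, adjusted p = 0.022). Quantile normalization gave 0.79 (adjusted p = 0.161) and 0.45 (adjusted p = 0.444) there, and leaving out 3 hpf library 33 or 34 or 2.5 hpf library 3 also took both below the threshold (adjusted p = 0.0571 to 0.182). At that step 4 of the 9 unigenes were called, 3 higher and Zic4 DN23754 lower, beside 27.6% of all unigenes (4323 higher and 838 lower, and 1859 and 1885 with quantile normalization).

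No step of the 2 maternal SALL1 unigenes was called between 3 and 10 hpf, and at 10 hpf DN9945 had 14.2, 13.0 and 23.02 RPKM and DN16067 11.7, 9.96 and 19.02 RPKM. Over the 15 staged group means of log2(RPKM + 1) their Pearson r was 0.987. SALL1 DN3942, by contrast, had r = 0.184 with DN9945 and 0.201 with DN16067. The group means share sequencing lanes, and these correlations are descriptions.

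**Figure D4:**
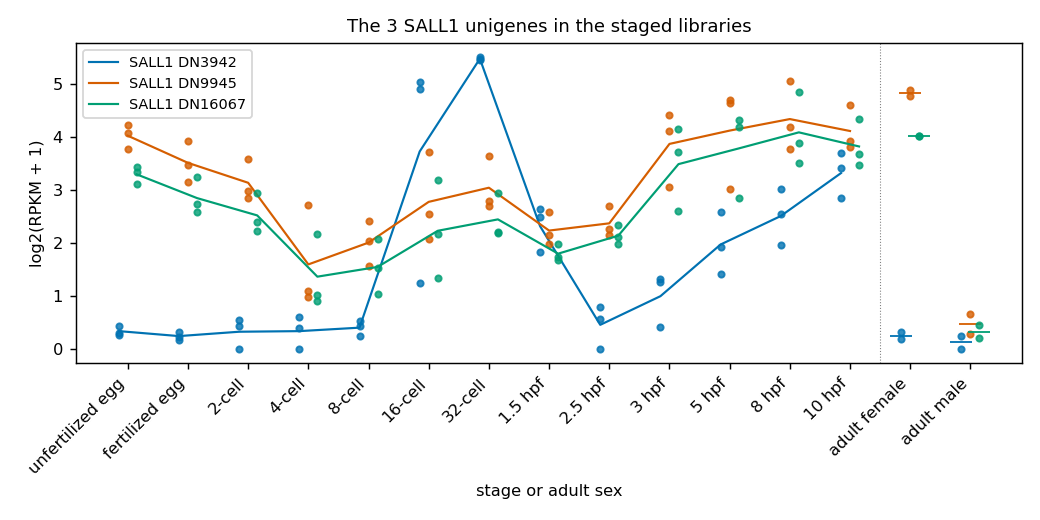
Staged values of the 3 SALL1 unigenes as log2(RPKM + 1), by stage and adult sex, with libraries as points and means as lines or bars. DN9945 and DN16067 are high in the egg, have the lowest mean of the 13 stages at 4 cells and are high again from 3 hpf and in females, while DN3942 peaks at 32 cells.

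At 12 hpf the hemisphere samples showed another ZIC4 unigene high in the vegetal samples. ZIC4 DN22343 had 32.2, 68.7, 48.3 and 54.1 RPKM in vegetal libraries 3 to 6, 0, 0, 0 and 0.313 RPKM in animal libraries and 17.9, 37.99, 23.1 and 21.7 RPKM in whole embryos. The vegetal samples were higher by 5.55 ± 0.27 (SE, adjusted p = 6.41e-14). SNAI2 DN20191 had 5.33, 10.2, 4.29 and 5.77 RPKM in the vegetal libraries, was listed at 0 in all 4 animal libraries and had 4.25, 4.12, 6.48 and 4.73 RPKM in whole embryos. Its difference was 2.83 ± 0.28 (SE, adjusted p = 6.01e-09). Neither unigene overlapped between the animal and vegetal samples at 12 hpf, where 27.1% of all unigenes tested had every vegetal above every animal library.

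Of the 8 unigenes that could be tested in the hemisphere set, 3 were called between the 12 hpf hemispheres, 2 higher and 1 lower in the vegetal samples, beside 48.2% of all unigenes. The median log2 difference of the 8 was 0.302 and that of all 15697 unigenes 0.304. GLIS3 passed the filter (1 RPKM or more in 4 hemisphere libraries) only through the vegetal 8-cell libraries, which chose the symbols. Its place among the 8 is therefore a description. Quantile normalization moved the median of all unigenes to -0.204, with 3437 unigenes higher and 4105 lower in place of 5157 and 2409, and both ZIC4 DN22343 and SNAI2 kept direction and call. SALL1 DN9945 was the lower one, with 11.7, 6.43, 7.22 and 5.29 RPKM in vegetal and 16.95, 9.27, 18.7 and 8.62 RPKM in animal libraries, which overlap (-0.71 ± 0.27, SE, adjusted p = 0.0348). It lost the call when any of 5 libraries was left out, animal 3 and 5 and vegetal 4, 5 and 6 (adjusted p = 0.0658 to 0.121). SALL1 DN16067 had 8.94 to 13.8 RPKM in vegetal and 8.83 to 19.6 RPKM in animal libraries, and ZIC4 DN17012 4.08 to 10.7 and 3.68 to 8.07 RPKM, neither called. With quantile normalization SALL1 DN16067 was lower in vegetal samples (-1.89, adjusted p = 0.000159). ZIC4 DN10145, SALL1 DN3942 and GLIS3, which did not overlap between the 8-cell hemispheres, were at or under 2.47 RPKM in all 12 of the 12 hpf libraries.

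Markers of several tissues moved with the vegetal label at 12 hpf. Summed over each list, gut markers (51 unigenes) came to 2809 to 7607 RPKM in vegetal and 258 to 524 RPKM in animal libraries, with 0 and 6 of them at 0 throughout. Muscle markers (48 unigenes) came to 4362 to 9178 and 873 to 1699 RPKM, with 4 and 15 at 0 throughout. Germ line markers (6 unigenes) came to 444 to 891 and 33.1 to 51.8 RPKM, and nervous system markers (10 unigenes) to 120.6 to 147 and 12.3 to 95.5 RPKM. The sperm list (13 unigenes) came to 313 to 566 and 22.7 to 26.4 RPKM. Its symbols include the axoneme genes SPAG6, RSPH4A, ENKUR and DNAI1, so its sum is not read as sperm here. The 1 notochord marker found had 0.535 to 4.15 and 0 to 0.123 RPKM. In whole 12 hpf embryos muscle sums were 13116 to 17296 RPKM, above both hemisphere samples, and the notochord marker had 1.46 to 5.31 RPKM. Gut, germ line, nervous system and sperm list sums of whole embryos lay between those of the hemisphere samples. The part of these tissues in the values of ZIC4 DN22343 and SNAI2 was not tested. At 8 cells, gut marker sums were 4.04 to 11.3 RPKM in vegetal and 6.13 to 12.0 RPKM in animal libraries.

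**Figure D5:**
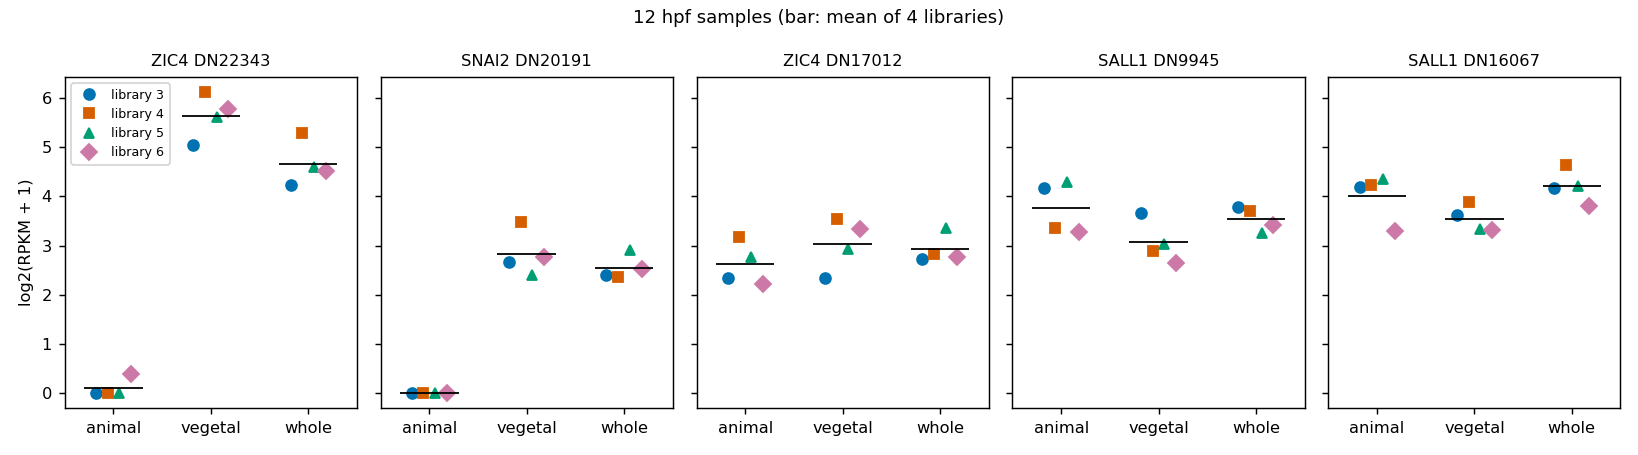
Values of 5 unigenes in the 12 hpf libraries of the hemisphere set, as log2(RPKM + 1), for samples labelled animal, vegetal and whole. Each symbol is 1 library and the bar is the mean of 4. ZIC4 DN22343 and SNAI2 are at or near 0 in animal samples and high in vegetal and whole samples, and the other 3 overlap between animal and vegetal samples.

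Whole embryos at 12 hpf differed from whole 8-cell embryos in 5 of the 8 tested unigenes, 3 higher and 2 lower, beside 79.1% of all unigenes. ZIC4 DN22343 was higher at 12 hpf by 4.52 ± 0.27 (SE, adjusted p = 1.54e-12), having been listed at 0 in 3 of the 4 whole 8-cell libraries. SNAI2 was lower, with a log2 difference of -1.08 ± 0.28 (SE, adjusted p = 0.00118), and so was ZIC4 DN10145 (-2.91 ± 0.59, SE, adjusted p = 0.000102). The median of all unigenes was 1.172 higher at 12 hpf (8831 higher and 3587 lower), and quantile normalization moved it to -0.177 (4138 and 5564). With that scaling ZIC4 DN17012 went from 2.41 (adjusted p = 3.38e-07) to -0.51 (adjusted p = 0.255) and SALL1 DN16067 from 0.76 (adjusted p = 0.0325) to -0.72 (adjusted p = 0.0895), so no direction is given for these. With that scaling SALL1 DN3942 (-2.59, adjusted p = 0.00456) and GLIS3 (-1.62, adjusted p = 0.0132) were also called lower, which they were not otherwise. SALL1 DN9945 turned from 0.46 (adjusted p = 0.128) to -1.79 (adjusted p = 0.000114) and was called lower as well. GLIS3 was tested there only through the vegetal 8-cell libraries, as given above. SALL1 DN16067 also lost the call without whole 12 hpf library 4 or 5 or whole 8-cell library 6 (adjusted p = 0.0550 to 0.104). Whole 12 hpf embryos were above the mean of both hemispheres for ZIC4 DN22343 (1.78 ± 0.23, SE, adjusted p = 3.08e-06) and SNAI2 (1.13 ± 0.24, SE, adjusted p = 0.00092), 2 of 8 unigenes beside 24% of all (3563 higher and 201 lower, and 2018 and 2015 with quantile normalization). That mean averages log2 values of a high and a near-zero hemisphere, and on the RPKM scale the whole embryo means of ZIC4 DN22343 and SNAI2, 25.2 and 4.89, lay between those of the hemispheres. Quantile normalization made the SNAI2 difference 0.21 (adjusted p = 0.564).

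In adults 4 of the 9 unigenes were called higher in females, a share close to the 40.2% of all unigenes called higher, and so not a result about these unigenes. The other 5 were at or under 0.380 RPKM in every adult and were not called. SNAI2 stood at 19.6 and 19.7 RPKM in the 2 females and 0.0422 and 0.134 RPKM in the 2 males. SALL1 DN9945 had 28.6 and 26.3 RPKM in females and 0.581 and 0.205 RPKM in males, and SALL1 DN16067 had 15.2 and 15.03 RPKM in females and 0.357 and 0.151 RPKM in males. No female overlapped a male for these 3 unigenes, nor for 60.5% of all unigenes, with both females above both males. Females were above males for each, by 4.25 ± 0.50 (SE, adjusted p = 7.6e-09) for SNAI2, 4.36 ± 0.58 (SE, adjusted p = 8.11e-08) for SALL1 DN9945 and 3.69 ± 0.55 (SE, adjusted p = 6.76e-07) for SALL1 DN16067. ZIC4 DN17012, with 2.00 and 4.22 RPKM in females and 0.0639 and 0 RPKM in males, was the fourth called (1.94 ± 0.42, SE, adjusted p = 0.000188), and lost the call with quantile normalization (0.82, adjusted p = 0.0578). Thus 4 of 9 unigenes were higher in females and 0 in males, beside 40.2% higher and 46.8% called in either direction over all unigenes. Quantile normalization turned 7516 higher and 1237 lower unigenes into 3947 and 3552, and moved the median of all unigenes from 0.73 to -0.036. The germ line markers summed to 133 to 239 RPKM in females and 3.38 to 53.0 RPKM in males, and their part in these differences was not tested.

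The female level of SNAI2 was above that of the unfertilized egg. In a comparison added after the values were seen, females exceeded the unfertilized egg by 3.57 ± 0.46 (SE, adjusted p = 9.15e-08), and their means differed 25.2-fold. Both females and egg libraries 29 and 41 were sequenced in 1 lane, where the eggs had 0.371 and 0.611 RPKM. The maternal SALL1 unigenes were 1.79-fold (DN9945) and 1.71-fold (DN16067) higher in females than in eggs by their means, differences that were not called (adjusted p = 0.343 and 0.386). With SNAI2 and ZIC4 DN17012, 2 of the 9 unigenes were called there, beside 23.8% of all unigenes (4427 higher and 21 lower, and 1471 and 1049 with quantile normalization). ZIC4 DN17012 lost the call with quantile normalization (0.08, adjusted p = 0.902) or without female library 28 (1.27, adjusted p = 0.0667).

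Against the 10 hpf juvenile, males were lower for 6 of 9 unigenes, beside 67.1% lower and 75.6% called over all unigenes: the 3 SALL1 unigenes, SNAI2, ZIC4 DN17012 and ZIC4 DN22343. The median of all unigenes differed by -1.683 in males, and with quantile normalization, which moved that median to -0.060 (1575 higher and 12559 lower becoming 3699 and 4384), SNAI2 (-0.07, adjusted p = 0.921) and ZIC4 DN17012 (-0.13, adjusted p = 0.804) were no longer called. In females 3 of 9 were called, beside 59.1% of all unigenes (4122 higher and 6928 lower, and 4727 and 4381 with quantile normalization): SNAI2 was higher by 2.49 ± 0.46 (SE, adjusted p = 2.03e-05), and SALL1 DN3942 (-3.06 ± 0.59, SE, adjusted p = 4.29e-05) and ZIC4 DN22343 (-3.10 ± 0.44, SE, adjusted p = 2.92e-07) were lower.

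Ordered by mean RPKM over the 15 staged groups, SNAI2 was highest in females (19.6) and at 1.5 hpf (18.7), which do not differ beyond their spread (SD 0.114 and 0.984), then at 16 cells (13.2). SALL1 DN9945 was highest in females (27.4), then at 8 hpf (20.6), 5 hpf (18.6) and 10 hpf (16.7), and the 3 last lie within each other's SD. The lead of females over 8 and 5 hpf is less than the SD of the libraries of those stages (10.2 and 10.03). SALL1 DN16067 was highest at 8 hpf (17.3), ahead of females (15.1) by less than the SD of the 8 hpf libraries (9.20).

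The unigenes most like each member over the 15 staged group means of log2(RPKM + 1) were sought among those with a symbol and a group mean of 5 RPKM or more, as a description. ZIC4 DN10145 was most like Gata2 DN11433 (Pearson r = 0.991), Gata2 DN11216 (0.990) and PAX3 DN29997 (0.969), each highest at 32 cells and each a symbol of a DNA-binding factor. GLIS3 was most like PAX3 DN29997 (0.983), Pax7 DN14916 (0.965) and Egr4 DN10547 (0.953), and SALL1 DN3942 like GLIS3 (0.894), PAX3 DN29997 (0.833) and ZIC4 DN10145 (0.827). Zic4 DN23754 was most like PIM2 DN18328 (0.970), PIM3 DN13833 (0.963) and PIM1 DN13619 (0.955), which carry symbols of 1 kinase family and peak at 1.5 hpf. ZIC4 DN22343 was most like CDH7 DN16217 (0.999), a cadherin, Hoxd12 DN16608 (0.993) and PCDH1 DN27670 (0.992), a protocadherin. SNAI2 was most like STRAP DN16201 (0.872), VPS33B DN18304 (0.857) and PAPD7 DN9390 (0.831). For SALL1 DN9945 and DN16067 the closest was each other, followed by Mon2 DN18032 (0.964) and CTNS DN16981 (0.958) for DN9945 and LONRF1 DN19781 (0.964) and Lrrfip2 DN30832 (0.962) for DN16067. ZIC4 DN17012 was most like BRD9 DN17457 (0.980), Trmt61a DN32442 (0.971) and PPP5C DN18714 (0.967). With Spearman's rho 5 of these 27 companions were found again, and without the adults 15.

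The remaining unigenes of the same families were GLIS2 DN12956, Gli2 DN13808 and Zic5 DN10515. Zic5 was maternal, with 47.6 ± 16.9 RPKM (SD, n = 3) in the unfertilized egg, 47.1 ± 7.01 RPKM at 16 cells and 11.02 ± 3.19 RPKM at 32 cells, and it overlapped between the 8-cell hemispheres, at 86.9 to 188 RPKM in vegetal and 89.1 to 226 RPKM in animal libraries. GLIS2 and Gli2 had staged means at or under 0.123 RPKM at 8, 16 and 32 cells. At 12 hpf GLIS2 was higher in vegetal samples by 1.64 ± 0.44 (SE, adjusted p = 0.00343) and Zic5 by 0.86 ± 0.31 (SE, adjusted p = 0.0238), while Gli2, a nuclear factor of Hedgehog signalling, had -0.66 ± 0.34 (SE, adjusted p = 0.117). None of the 3 was called from 8 to 16 cells by limma (unadjusted p = 0.153 to 0.905). The counts of this list and those that follow were not recomputed under quantile normalization, and their directions hold for the RPKM as deposited. Of 51 unigenes of other developmental C2H2 factors, 2 were higher and 0 lower at that step, and 2 higher and 0 lower between 8 and 32 cells, beside 0.412% of all unigenes higher at that step and 1.66% called between 8 and 32 cells.

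Of the Hedgehog pathway, 14 of 15 unigenes were tested in the staged set and limma called 0 in either direction from 8 to 16 or from 8 to 32 cells (0 and 2 at an unadjusted p under 0.05). At 12 hpf 11 were tested, of which 2 were higher and 3 lower in vegetal samples, beside 48.2% of all unigenes called (median -0.11, all unigenes 0.30). HHAT, which attaches palmitate to Hedgehog proteins, was lower in vegetal samples by a log2 difference of -3.06 ± 0.59 (SE, adjusted p = 0.000121), with 0.228 to 9.57 RPKM against 14.005 to 88.1 RPKM in animal samples. Whole 12 hpf embryos had 44.7 to 93.6 RPKM of HHAT. Ptch1, the Hedgehog receptor, was not called (-0.31 ± 0.29, SE, adjusted p = 0.424).

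Corepressor genes, whose products act with Snail and SALL factors in vertebrates, gave 15 tested unigenes. Females were above males in 14 of them and below in 0, beside 40.2% of all unigenes higher and 46.8% called (median 4.18, all unigenes 0.73), among them Ctbp1, a corepressor of Snail, by 5.40 ± 0.39 (SE, adjusted p = 7.48e-14), and the NuRD subunit MBD2, by 4.89 ± 0.51 (SE, adjusted p = 6.92e-10). Between the 12 hpf hemispheres 1 was higher in vegetal samples, the arginine methyltransferase PRMT5 (1.002 ± 0.23, SE, adjusted p = 0.000787), and 0 were lower. From 8 to 16 cells limma called 0 of 15 (1 at an unadjusted p under 0.05). Adhesion and matrix genes, targets of Snail factors in vertebrates, had 16 of 33 tested unigenes higher and 8 lower in the vegetal samples at 12 hpf, beside 48.2% of all unigenes called, 5157 higher and 2409 lower (median 0.72, all unigenes 0.30), and limma called 0 of 36 from 8 to 16 cells (0 at an unadjusted p under 0.05).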

How the data were processed

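Per the submitters' processing notes reads were aligned with HISAT2, whose version, like the genome build and the counting tool, was not given in the sources used here. The authors deposited RPKM per unigene and library for both sets, and percent of reads aligned per staged library, with a fraction headed %SS that the authors did not define and that supports nothing here. The members and gene lists were chosen with earlier results of these data known. Members were all unigenes with the 4 symbols, case ignored. Companions were the 3 unigenes with the highest Pearson r among those with a symbol and a group mean of 5 RPKM or more, all family relatives were named, and from the Hedgehog and corepressor lists those with the smallest p were eligible. In total 148 columns of values per library were not used.

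Log2(RPKM + 1) was fitted with limma 3.58.1 (R 4.3.3; group means, eBayes with trend) over 24 or 43 libraries, separately for each set, keeping unigenes at 1 RPKM or more in 4 hemisphere or 2 staged libraries. P-values were adjusted by Benjamini-Hochberg over 15697 or 18704 unigenes, with a threshold of 0.05. Tables were made with Python 3.11.15, pandas 2.3.3 and numpy 2.4.6, and figures with matplotlib 3.10.9. The limma fit was tried on simulated data whose changes were put only into unigenes well above 0. That simulation does not bear on members that start at or near 0. The depth behind staged values follows from the read numbers, and no interval for counting error was computed.

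Same-numbered hemisphere libraries deviated together from their group means, with correlations of 0.55 to 0.701 between 8-cell hemispheres and 0.144 to 0.246 between 12 hpf hemispheres, so the numbers pair libraries within a time. Whole embryos of the 2 times correlated at -0.047 to 0.113, which does not settle whether their numbers pair them. Alternatives were another pseudocount (0.1), no filter, quantile normalization, no trend, the compared libraries alone, a replicate block, each library left out and, chosen after seeing the data, the lane as a covariate, a block by the staged replicate numbers, 2 libraries left out and 3 added comparisons.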

Additional observations from a re-analysis of the deposited data

Results flagged for a closer look

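Among 28 groups of 4 hemisphere libraries with a mean of at least 1 RPKM, 5 had 1 library whose gap to the nearest other on the log2(RPKM + 1) scale took up more of the group's range than Dixon's critical value allows, where chance flags about 1 in 20 groups. In whole 8-cell library 4, SALL1 DN3942 stood at 103 RPKM against 0.255 to 0.557 RPKM in the other 3, and GLIS3 DN9614 at 15.1 RPKM against 0 to 0.479 RPKM. SNAI2 DN20191 was low in the same library, at 8.63 RPKM against 11.9 to 12.7 RPKM. ZIC4 DN17012 stood at 9.30 RPKM in whole 12 hpf library 5 against 5.62 to 6.12 RPKM. SALL1 DN16067 stood at 8.83 RPKM in animal 12 hpf library 6 against 17.2 to 19.6 RPKM.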

How the results depend on the processing

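Of 294 member results 100 were called, and 52 of these kept direction and call under all alternatives run. The share called over all unigenes ran from 0% to 92.9% between these comparisons, so the counts are not a result about the members. With the compared libraries alone, calls over all unigenes between 8-cell hemispheres went from 63 to 34, member calls over the 12 steps from 17 to 7 (all unigenes 21968 to 8340), member calls of 10 against 3 hpf from 3 to 1, and calls of whole embryos against hemispheres over all unigenes from 3764 to 2466. With quantile normalization, member calls went from 2 to 1 for whole embryos against hemispheres and from 2 to 1 for females against eggs (all unigenes 4448 to 2520), and calls of males against 10 hpf from 14134 to 8083. The lane term moved calls of 32 against 8 cells from 311 to 523. Of the 27 most alike unigenes, 5 were shared with Spearman's rho and 15 without the adults.

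Quantile normalization reversed 12 member differences. For whole embryos at 12 hpf against 8 cells ZIC4 DN17012 became -0.51, SALL1 DN16067 -0.72 and SALL1 DN9945 -1.79. At 5 hpf against the egg ZIC4 DN17012 became -0.48, SALL1 DN16067 -0.95, SNAI2 -0.70 and SALL1 DN3942 -0.60. At 8 hpf ZIC4 DN17012 became -0.72, SNAI2 -1.02 and SALL1 DN3942 -0.38, and at 10 hpf ZIC4 DN17012 -0.60 and SNAI2 -1.11. The cause was not tested.

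Leaving out 1 library gave 45 to 66 calls between 8-cell hemispheres and, for the members, 2 to 3 between 12 hpf hemispheres, 4 to 5 across times, 13 to 21 over the steps, 39 to 45 against the egg, 1 to 2 for females against eggs and 1 to 4 for 10 against 3 hpf. Calls of 32 against 8 cells over all unigenes were 147 to 300. With the replicate block within each time, 3 members were called between 12 hpf hemispheres and 2 in whole embryos against hemispheres, and across both times 5, so the block changed no member call. In the staged set a replicate block by the numbers of the authors' sequencing table was fitted, as an alternative chosen after seeing the data, where all libraries compared carry a single number in 1 lane. It left 3 members called for 32 against 8 cells (all unigenes 311 to 339) and 17 over the steps, with the 2.5 to 3 hpf libraries blocked. Same-numbered libraries correlated at -0.124 to 0.192 in their deviations, and 2 of 6 correlated best with their own number. So few correlations cannot settle whether the numbers pair staged libraries. Other staged comparisons were not blocked.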
